A study of Homo sapiens with 6 samples.

Results

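MHC class I molecules carry peptides from inside the cell to its surface, where CD8 T cells read them and natural killer (NK) cells check that they are there. The 9 genes described here encode parts of that system and were chosen by name: the heavy chains HLA-B, HLA-C and HLA-E, the light chain B2M, the peptide transporter subunits TAP1 and TAP2, the loading chaperone TAPBP, the trimming peptidase ERAP1 and the transactivator NLRC5. All 9 were found among the 29810 genes of the deposited table. The data are mRNA levels in Kasumi-1, an established line of human myeloblasts grown from an acute myeloid leukaemia, in which a translocation joins RUNX1 to RUNX1T1. The 6 libraries comprised 3 of control cells and 3 of cells given 0.125 µM of I1, an agent known here only by its code name, with 48 h of treatment in each group. All samples are of 1 cell line. Separate cultures are not mentioned in the labels, so the p-values cover the spread among these 6 samples, which may be technical, and no more.

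A class I heavy chain folds in the endoplasmic reticulum together with beta-2 microglobulin, the product of B2M. Peptides cut by the proteasome enter through the TAP transporter, are trimmed by ERAP1 and are loaded with the help of tapasin, the product of TAPBP, and the chaperone calreticulin. NLRC5 drives transcription of most of these genes through a promoter module shared by the class I genes, and interferons raise them through interferon-stimulated response elements (ISRE) and through NLRC5 and IRF1. Leukaemia cells can keep low class I levels, and interferon is the best known means of raising them.

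The shared layout can be read from the reference promoters. RefSeq (GRCh38.p14) gave 300-base windows, 250 bases before and 50 after an annotated start, for 7 of the 9 genes: B2M, HLA-B, HLA-C, TAP1, TAP2, TAPBP and ERAP1. HLA-E and NLRC5 had none in the table used. The windows were searched on both strands for an ISRE core (GAAA, any 2 bases, GAAA), a kB-type site of NF-kB (GGGA, any 4 bases, CC), a CCAAT box (CCAAT) and the core of a cAMP response element (TGACG). A GAS motif (TTCNNNGAA, N being any base) was also searched for and matched only in TAP1, in a window not shown. For the heavy chains HLA-B and HLA-C and the light chain B2M the stretch from 195 to 41 bases before the start is shown, since it holds the class I module. Capitals mark every match, and matches that overlap or touch form 1 run.
HLA-B, chr6:31357220-31357374, minus strand: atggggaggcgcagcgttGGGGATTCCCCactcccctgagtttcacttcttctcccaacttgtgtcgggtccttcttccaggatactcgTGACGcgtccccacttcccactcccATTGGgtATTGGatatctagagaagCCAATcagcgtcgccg
HLA-C, chr6:31272133-31272287, minus strand: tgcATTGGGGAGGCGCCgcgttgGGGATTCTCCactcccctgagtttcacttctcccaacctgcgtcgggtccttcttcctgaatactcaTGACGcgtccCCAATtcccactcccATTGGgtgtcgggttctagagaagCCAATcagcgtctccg
B2M, chr15:44711322-44711476, plus strand: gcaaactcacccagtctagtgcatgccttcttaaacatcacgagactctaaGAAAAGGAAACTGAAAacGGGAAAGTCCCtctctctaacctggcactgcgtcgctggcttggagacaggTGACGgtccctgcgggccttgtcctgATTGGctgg

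The 3 stretches share a kB-type match, a TGACG and, downstream of it, a CCAAT box in one or the other direction. The ISRE core letters matched in B2M but not in the windows of HLA-B and HLA-C, which says only that these letters are not there. For the loading genes, the 30 bases around the ISRE match are shown with the match in capitals, because all 4 had this element in a window. TAP1 and ERAP1 had 2 windows each, and only the window with the match is shown. The ERAP1 match begins at base 3 after the start.
TAP1, chr6:32853816-32853845, minus strand: cggccgcTTTCGATTTCGCTTTCccctaaa
TAP2, chr6:32838778-32838807, minus strand: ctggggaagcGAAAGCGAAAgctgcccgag
TAPBP, chr6:33314076-33314105, minus strand: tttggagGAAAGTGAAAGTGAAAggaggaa
ERAP1, chr5:96807924-96807953, minus strand: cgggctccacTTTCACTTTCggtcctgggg

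TAP1 and TAPBP hold a pair of overlapping matches each. Of all 35116 promoter windows, 3.57% held an ISRE core, 25.6% a kB-type site, 34.6% a CCAAT box, 24.6% a TGACG and 7.66% a GAS motif. A match is a description of the reference sequence, not a site shown to be bound, and Kasumi-1 may carry other HLA alleles than the reference.

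Levels are FPKM, which scale fragment counts to gene length and to a library total, so that genes can be compared per length. Steps in the low values gave library totals of 17330698 to 18204409 for control and 16390742 to 16947804 for I1. In a transcript of 1 kilobase, 1 read was worth 0.0549 to 0.0610 FPKM. The gap between the log2(FPKM + 1) of control replicate 1 and the mean of the other controls varied widely between genes. It ran from -0.80 at the lower to 0.58 at the upper end (percentiles 5 and 95) of the 11913 tested genes. For I1 replicate 1 the same gap ran from -0.42 to 0.47. The other libraries were not compared in this way. Markers of the line were expressed, with KIT at 149.5 to 203 FPKM, and RUNX1T1 and CD33 lower, at 12.1 to 18.4 and 9.89 to 16.8 FPKM. The 10 myeloblast markers summed to 14475 to 19814 FPKM in controls and 13299 to 15147 with I1, most of it MPO, PRTN3 and ELANE. The 5 T cell markers with a row summed to 2.91 to 4.27 FPKM in controls and 3.23 to 3.70 with I1, nearly all of it CD8A and CD3D, and TRAC was at 0 in all libraries. The 5 B cell markers summed to 7.13 to 12.8 FPKM in controls and 6.08 to 8.93 with I1, with CD79B the highest of them in each library, and the erythroid, stromal and macrophage lists to at most 0.221 FPKM in any library. The part of these markers in the results was not tested. In bulk RNA, fewer cells that express a gene and less RNA per cell cannot be told apart.

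Whether 48 h with I1 altered the class I genes was asked with limma on log2(FPKM + 1), a scale that understates changes of low genes. Genes entered if 3 or more libraries had 1 FPKM or more. To be called, a gene needed a 2-sided p under 0.05 after Benjamini-Hochberg adjustment and a log2 fold change of 1 or more in either direction. Of the 9 genes 8 passed the filter and TAP1 did not, and 0 of the 8 rose or fell, against 0.0336% of all tested genes called. In this fit, which did not use the replicate number, none of the 8 had an unadjusted p under 0.05. TAPBP, ERAP1 and HLA-B each did in an alternative fit given at the end. Voom, run on the 7 without B2M, whose reads were not recovered, called 0 of them. The median log2 fold change of the 8 was 0.08, beside 0.03 over all 11913 tested genes, with 5 above 0 and 3 below. The groups overlapped for all 9 genes, while over all tested genes 12.9% had every I1 library above every control and 8.74% every I1 library below. What the class I genes showed was a wide range of levels between genes and, for some, a spread between libraries of the same group of over 2-fold that recurred in both groups.

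**Figure D1:**
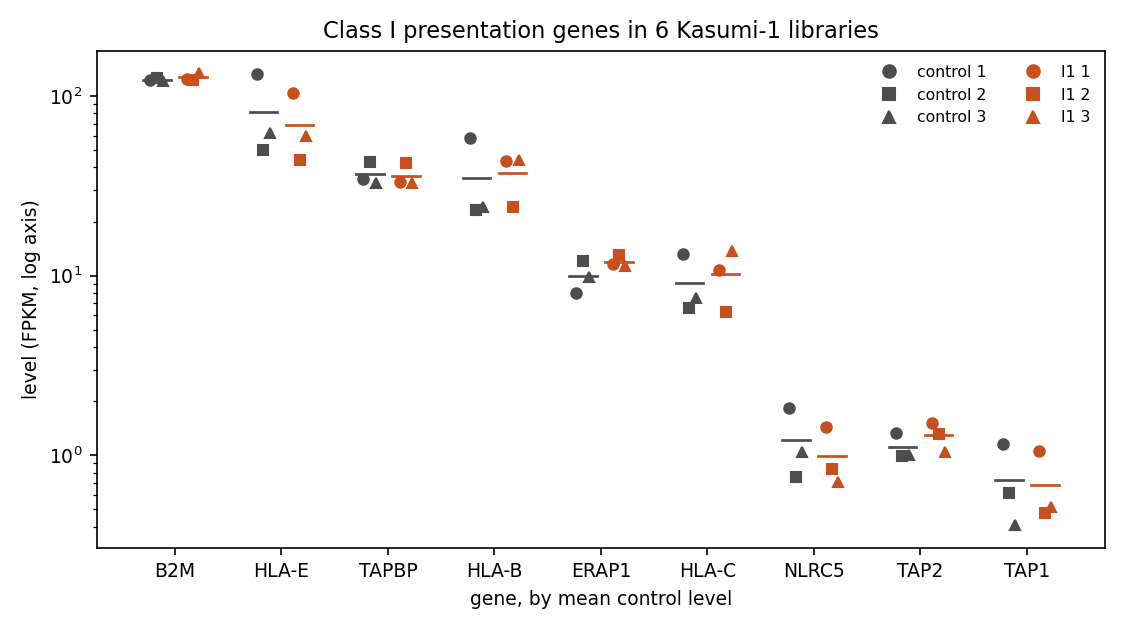
Level of each gene in FPKM on a log axis, with controls in grey, I1 in orange, a symbol for each replicate number and a bar at the group mean (n = 3 each). B2M lies within 121 to 134 FPKM in all 6 libraries, HLA-E runs from 43.8 to 132 FPKM, and NLRC5, TAP2 and TAP1 lie between 0.408 and 1.83 FPKM.

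B2M (ENSG00000166710; chromosome 15 of hg38, 44711487 to 44718877, plus strand) had the highest mean of the 9 in each group and, in the deposited values, the narrowest range over the libraries. In control replicate 1 HLA-E lay above it. After the GC correction ERAP1 had a narrower range on log2(FPKM + 1), as did TAP2, a low gene whose differences this scale understates. B2M had 123, 127 and 121 FPKM in the controls and 124, 123 and 134 FPKM with I1. All libraries lay within 1.11-fold of each other, and the groups overlapped. The means were 123 ± 2.95 and 127 ± 5.81 FPKM (SD, n = 3 each), and the log2 fold change was 0.04 ± 0.109 (SE; limma adjusted p = 0.855), with a 95% interval of -0.21 to 0.29. The light chain thus had the narrowest interval of the 8 tested genes. The sign of its fold change turned with TMM factors (-0.02), with median ratio factors (-0.01) and with a correction for GC content (-0.18).

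HLA-E (ENSG00000204592; chromosome 6, 30489467 to 30494205, plus strand) encodes the heavy chain that presents leader peptides of other class I chains to the NK receptor NKG2A. It was the most abundant of the 3 heavy chain genes, at 132, 50.0 and 62.6 FPKM in the controls and 104, 43.8 and 59.8 FPKM with I1. Replicate 1 was highest, replicate 3 next and replicate 2 lowest in each group, so the order of the numbers was the same in both. Replicate 1 lay 2.35-fold above the mean of the other controls and 2.00-fold above the mean of the other I1 libraries. In the same-numbered pairs the ratio of I1 to control was 0.784, 0.875 and 0.955, lower with I1 in 3 of 3. The log2 fold change was -0.20 ± 0.405 (SE) with an interval of -1.14 to 0.73 (limma adjusted p = 0.803). It was 0.21 without control replicate 1 and 0.08 without I1 replicate 2, and -0.54 without I1 replicate 1 and -0.48 without control replicate 2, each of which leaves a pair incomplete. Without both libraries numbered 1 it was -0.13. With the replicate number as a block in the fit the estimate was -0.20 ± 0.0860 (SE; 95% interval -0.41 to 0.01; limma adjusted p = 0.190), and -0.05 ± 0.0595 (adjusted p = 0.712) with the GC correction as well.

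HLA-B (ENSG00000234745; chromosome 6, 31269491 to 31357188, minus strand) is a classical heavy chain gene whose products present peptides to CD8 T cells. It had 58.0, 23.1 and 24.0 FPKM in the controls and 43.7, 24.1 and 44.2 FPKM with I1. Replicate 2 was low in both groups and replicate 1 high, while replicate 3 was low in control and high with I1. The pair ratios were 0.753, 1.04 and 1.84, and the log2 fold change was 0.17 ± 0.373 (SE; limma adjusted p = 0.819; 95% interval -0.69 to 1.03). Without control replicate 1 it was 0.59 (adjusted p = 0.751) and without I1 replicate 2 0.45, while it turned to -0.05 without control replicate 2 and to -0.03 without control replicate 3. It was 0.38 after the GC correction (adjusted p = 0.964) and 0.52 with array weights (adjusted p = 0.254).

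HLA-C (ENSG00000204525; chromosome 6, 31268749 to 31272130, minus strand), a classical heavy chain gene and the main class I ligand of the KIR receptors of NK cells, lay lower. Its levels were 13.2, 6.61 and 7.53 FPKM in the controls and 10.7, 6.31 and 13.8 FPKM with I1. It followed HLA-B: high in replicate 1, low in replicate 2, and in replicate 3 low in control and high with I1. The pair ratios were 0.809, 0.955 and 1.83, and the log2 fold change was 0.15 ± 0.308 (SE; limma adjusted p = 0.804; 95% interval -0.56 to 0.86). It turned to -0.08 without I1 replicate 3 and to -0.03 without control replicate 2, and was 0.43 without I1 replicate 2 and 0.42 without control replicate 1. After the GC correction it was 0.40 (adjusted p = 0.957) and with array weights 0.35 (adjusted p = 0.388). HLA-B and HLA-C share 35 exon bases in the annotation and have near-identical stretches, so the split of reads between the heavy chain genes is uncertain. The ratio of HLA-B to HLA-C, 3.18 to 4.39 over the 6 libraries, is subject to that.

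Summed over HLA-B, HLA-C and HLA-E, the heavy chains had 204, 79.8 and 94.1 FPKM in the controls and 158, 74.2 and 118 FPKM with I1. Divided by the FPKM of B2M, the sum gave ratios of 1.65, 0.630 and 0.780 for control libraries, in replicate order. For I1 libraries the ratios were 1.27, 0.602 and 0.881. The summed FPKM thus exceeded that of B2M in both replicates numbered 1 and lay below it in the other 4 libraries. These are not ratios of transcript numbers. The gene length behind the FPKM of B2M is not known, because the annotation used here gave no whole reads for it. Another length would move all 6 ratios by the same factor.

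TAP1 (ENSG00000168394; chromosome 6, 32845209 to 32853978, minus strand) encodes the first subunit of the peptide transporter. It was the lowest of the 9, at 1.15, 0.618 and 0.408 FPKM in the controls and 1.05, 0.477 and 0.513 FPKM with I1. Replicate 1 was high in both groups, and the other 4 libraries lay below both, so that the groups overlapped. About 101, 51 and 35 reads lie behind the control values and about 83, 39 and 41 behind those with I1. The exact 95% counting intervals of control replicate 1 (0.938 to 1.40 FPKM) and control replicate 2 (0.460 to 0.812 FPKM) did not overlap. The read numbers are approximate, because the gene length that fits the deposited values differs from the annotation used here. Being under the filter it was not tested. With no filter its log2 fold change was -0.03 ± 0.222 (SE; limma adjusted p = 0.974).

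TAP2 (ENSG00000204267; chromosome 6, 32821833 to 32838780, minus strand), the second subunit of the transporter, had 1.33, 0.993 and 1.01 FPKM in the controls and 1.51, 1.32 and 1.05 FPKM with I1. It was higher with I1 in 3 of 3 pairs, by 1.13, 1.33 and 1.04-fold, and the groups overlapped. The log2 fold change was 0.12 ± 0.160 (SE; limma adjusted p = 0.711; 95% interval -0.25 to 0.49) and stayed above 0 in every alternative that tested it. With 110 to 158 reads per library, the exact counting intervals of the lowest (0.816 to 1.20 FPKM) and the highest library (1.28 to 1.76 FPKM) did not overlap. The level of TAP2 was 1.16 to 2.77 times that of TAP1 in the 6 libraries, per length. The gene length behind the FPKM of TAP1 is not known, and another length would move all 6 ratios by the same factor. TAP2 also shares 2064 exon bases with the gene model AL669918.1.

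TAPBP (ENSG00000231925; chromosome 6, 33299694 to 33314387, minus strand) encodes tapasin, which holds the empty heavy chain at the transporter. It had 34.5, 43.0 and 33.0 FPKM in the controls and 33.3, 42.3 and 32.6 FPKM with I1. Replicate 2 was the high one in both groups, unlike the heavy chains, and the same-numbered libraries of the groups lay close together (pair ratios 0.967, 0.983 and 0.989). The log2 fold change was -0.03 ± 0.154 (SE; limma adjusted p = 0.932; 95% interval -0.39 to 0.33), and its sign turned when the libraries were scaled to equal sums (0.02), after the GC correction (0.16), with array weights (0.07) and without control replicate 2 (0.09), I1 replicate 1 (0.02) or I1 replicate 3 (0.04). With the replicate number as a block and the GC correction the estimate was 0.16 (95% interval 0.00346 to 0.324). Its limma p was 0.0466 before and 0.335 after adjustment. Tapasin mRNA stood far above that of the transporter subunit TAP1, with control means of 36.8 ± 5.44 and 0.726 ± 0.384 FPKM (SD, n = 3 each).

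ERAP1 (ENSG00000164307; chromosome 5, 96760810 to 96808100, minus strand) encodes the aminopeptidase that trims peptides in the endoplasmic reticulum. It had 7.99, 12.1 and 9.79 FPKM in the controls and 11.6, 13.0 and 11.3 FPKM with I1. Every I1 library exceeded its same-numbered control, by 1.45, 1.08 and 1.15-fold, but control replicate 2 lay above I1 replicates 1 and 3. The log2 fold change was 0.26 ± 0.157 (SE; limma adjusted p = 0.484; 95% interval -0.10 to 0.62), the smallest adjusted p of the 8. It was 0.12 without control replicate 1, 0.39 without control replicate 2 and 0.01 after a correction for GC content.

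NLRC5 (ENSG00000140853; chromosome 16, 56989485 to 57083531, plus strand), the class I transactivator, was low, at 1.83, 0.759 and 1.04 FPKM in the controls and 1.44, 0.838 and 0.709 FPKM with I1. Replicate 1 was the highest of each group. With 412 reads in control replicate 1 and 163 in control replicate 2, the library values had exact counting intervals of 1.66 to 2.01 and 0.647 to 0.885 FPKM, which do not overlap. The log2 fold change was -0.14 ± 0.229 (SE; limma adjusted p = 0.763; 95% interval -0.67 to 0.39), and it was 0.06 without control replicate 1 and 0.06 after the GC correction. Counting intervals here cover counting error only.

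**Figure D2:**
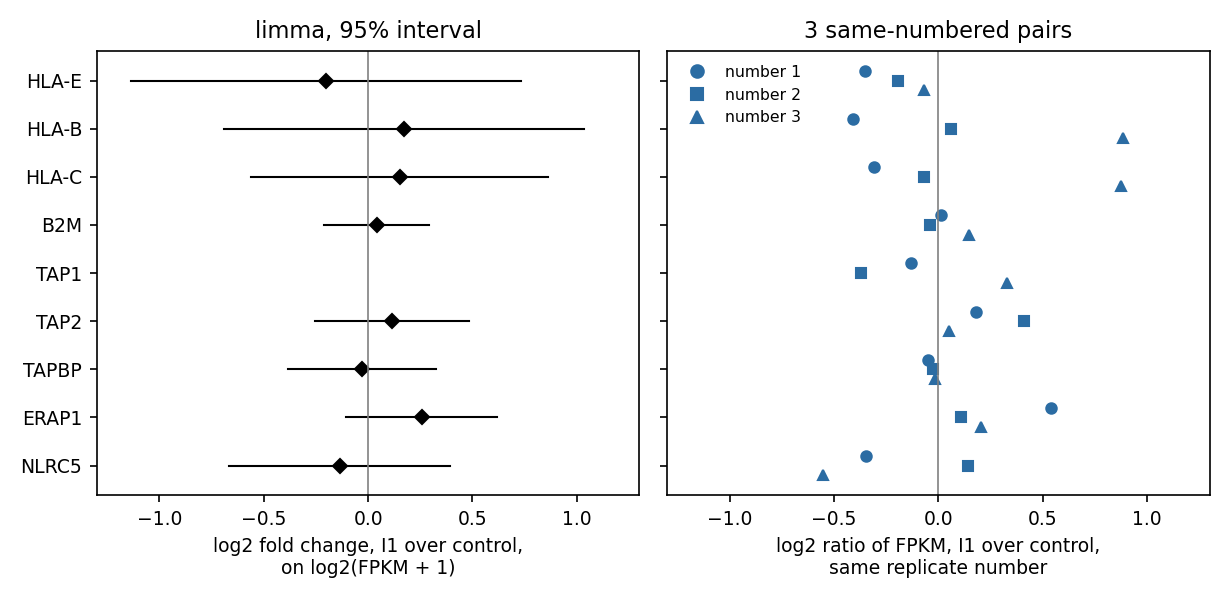
Left, log2 fold change of I1 over control from limma without replicate number, with its 95% interval for the 8 tested genes (TAP1 was not tested). Right, the log2 ratio of FPKM within each same-numbered pair. All 8 intervals include 0, and the pair ratios of HLA-B and HLA-C run from below 0 in pair 1 to 0.88 and 0.87 in pair 3.

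Ordered by control mean FPKM, the genes were B2M, HLA-E, TAPBP, HLA-B, ERAP1, HLA-C, NLRC5, TAP2 and TAP1. The places of B2M and TAP1 depend on gene lengths that are not known here. Control ranges of neighbours overlapped between B2M and HLA-E, TAPBP and HLA-B, ERAP1 and HLA-C, NLRC5 and TAP2, and TAP2 and TAP1. They were apart between HLA-E and TAPBP (2.22-fold between the means), HLA-B and ERAP1 (3.52-fold) and HLA-C and NLRC5 (7.54-fold). Among the tested genes the control mean of B2M stood at the 98.1 percentile, of HLA-E at 96.7, of TAPBP at 91.5 and of HLA-B at 91.0. ERAP1 stood at 64.7, HLA-C at 62.0, NLRC5 at 7.32 and TAP2 at 5.48.

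Some gene models overlap others. The sources used here do not give the use of strand in counting, so reads of overlapping genes cannot be told apart. TAP1 shares 456 exon bases with PSMB8-AS1 on the other strand (0 to 0.450 FPKM in the 6 libraries). ERAP1 shares 299 with CAST on the other strand (3.03 to 6.30 FPKM), and TAP2 shares 2064 on its own strand with the gene model AL669918.1. The long HLA-B model shares 542 with the pseudogene AL671883.2 on the other strand, which also covers the HLA-B promoter stretch shown above.

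The replicate numbers of the titles went with levels. Libraries of the same number deviated from their group means together, with correlations over all tested genes of 0.476, 0.457 and 0.412. The numbers were therefore treated as pairs in the pair ratios and the block fits. The main fit did not use them, so the intervals and adjusted p of each gene ignore the pairs except where a block is named. With the block the SE of the group difference was smaller for all 8 tested members, from 0.0768 for TAPBP to 0.216 for HLA-B. The term for the number in a limma fit with group and number was then tested, a test chosen after the values were seen. It passed an adjusted p of 0.05 in 2.14% of all tested genes and in 1 of the 8, HLA-E (adjusted p = 0.00950). HLA-B (adjusted p = 0.129), HLA-C (0.174), NLRC5 (0.176) and TAPBP (0.119) did not pass by limma, and B2M was at 0.942. These genes are GC-rich, with 54.8% GC in the longest HLA-E transcript, 59.0% in HLA-B, 62.7% in HLA-C, 58.0% in NLRC5 and 57.6% in TAPBP, against 40.6% in B2M and 39.7% in ERAP1. After a correction for GC content the term passed in 4.98% of all genes and in 2 of the 8, HLA-E (adjusted p = 0.00725) and TAPBP (0.0440).

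The correction changed the members unequally. The gap between control replicate 1 and the other controls, on log2(FPKM + 1), went from 1.23 to 1.03 for HLA-E, from 1.27 to 0.98 for HLA-B, from 0.82 to 0.47 for HLA-C and from 0.58 to 0.31 for NLRC5. For B2M it went from -0.01 to 0.32, and for ERAP1 from -0.40 to -0.03. The same gap of I1 replicate 1 was 1.01 and 0.97 for HLA-E, 0.41 and 0.35 for HLA-B, 0.17 and 0.11 for HLA-C and 0.46 and 0.41 for NLRC5. Over all tested genes the median gap was -0.08 in control and -0.01 with I1. HLA-E was thus high in replicate 1 of both groups, with and without the GC correction.

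**Figure D3:**
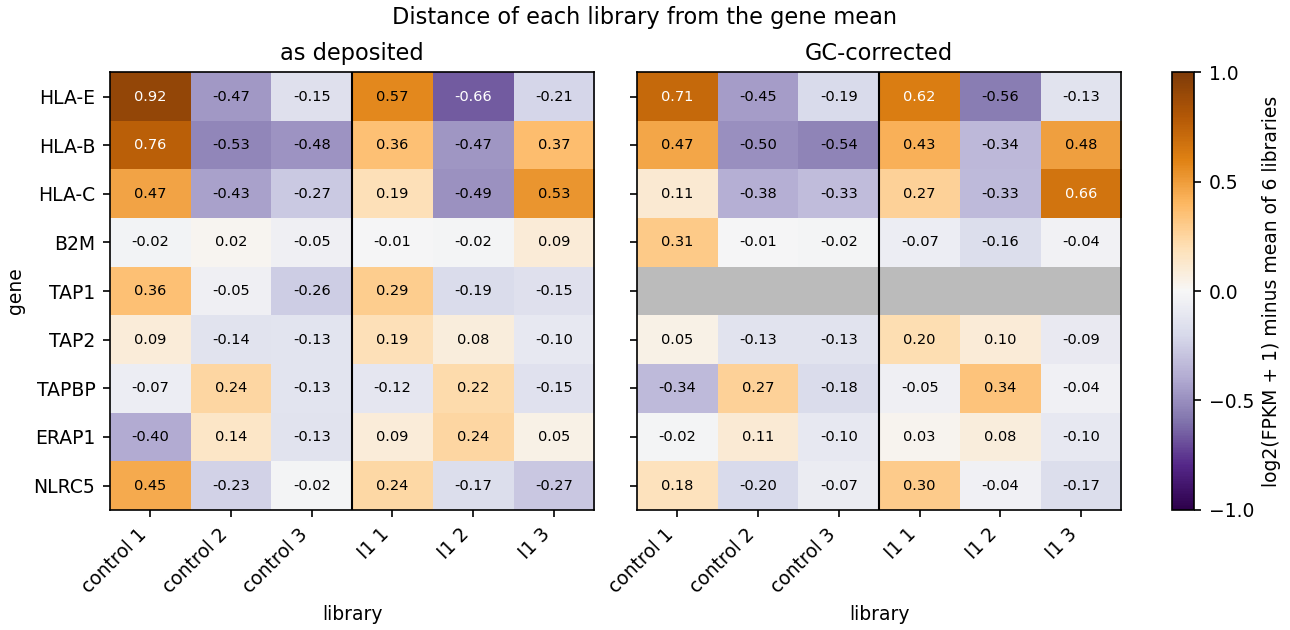
Each cell gives the log2(FPKM + 1) of a library minus the gene's mean over 6 libraries, as deposited (left) and after the GC correction (right; TAP1, in grey, was not corrected), with a line between control and I1. HLA-E is above its mean in both libraries numbered 1 (0.92 and 0.57, and 0.71 and 0.62 corrected), and TAPBP in both numbered 2 (0.24 and 0.22, and 0.27 and 0.34 corrected).

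The genes whose pattern over the 6 libraries lay nearest to 3 members were found by the root mean square distance of standardized log2(FPKM + 1), among 6924 non-member genes with a mean of at least 5 FPKM. Nearest to NLRC5 were PTP4A3 (distance 0.108), ESAM (0.116) and NUP210 (0.122), all highest in control replicate 1 and then I1 replicate 1. Of the members HLA-E was nearest to NLRC5, at 0.327. Nearest to TAP1 were the ribosomal protein genes RPL4 (0.0527), RPL5 (0.0928) and RPS24 (0.110), and of the members HLA-E (0.424). Nearest to B2M were MPC1 (0.203), TOX4 (0.373) and DCAF8 (0.453). With 6 libraries such likeness is a description and has no test.

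Around the members, 9 lists of the pathway held 118 entries, of which 110 had a row and 77 passed the filter. Of the 77 tested genes 0 rose and 0 fell by limma, 4 had an unadjusted p under 0.05, and voom called 0 of the 11222 genes it could test. Their median log2 fold change was -0.02, beside 0.03 over all tested genes, with 33 above 0 and 44 below. Every I1 library lay above every control for 8 of them and below for 11, where the shares over all tested genes were 12.9% and 8.74%. After the GC correction the median turned to 0.01 over all 77, to -0.01 for the transcription regulators and to -0.04 for the checkpoint ligands. It also turned for the interferon-stimulated genes, the negative regulators and the ligands of NK cell receptors. The smallest adjusted p in any list was 0.467, and 0.140 in the fit that blocks on replicate number.

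**Figure D4:**
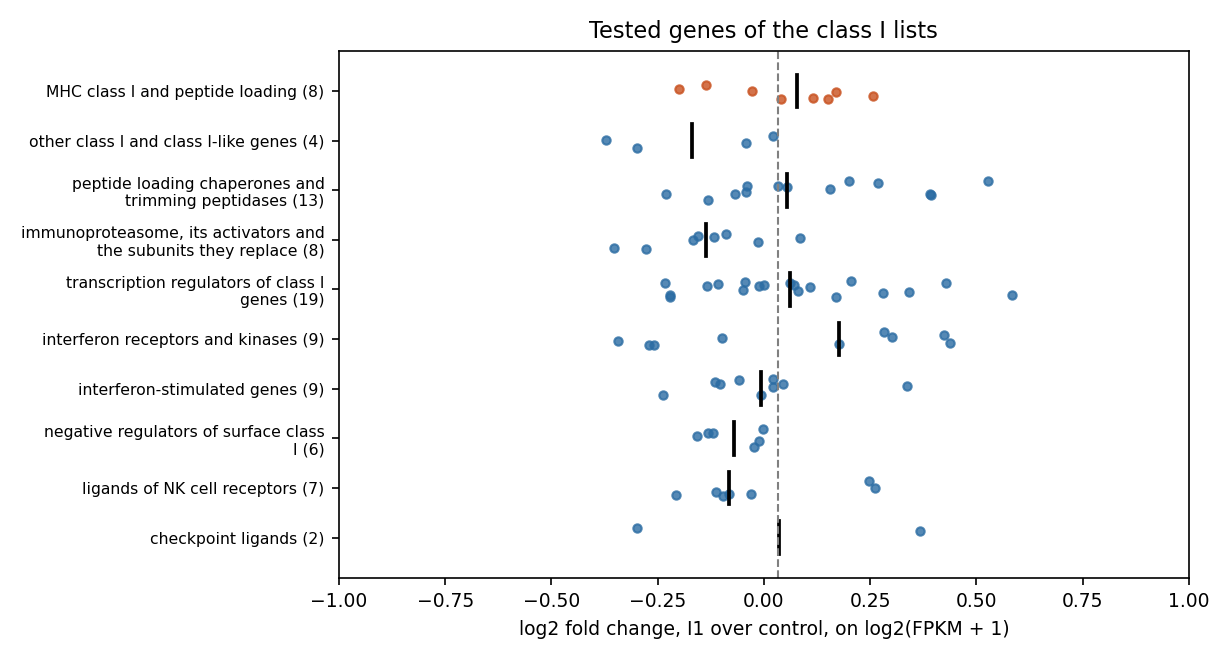
Log2 fold change of I1 over control for each tested gene (dots, the 8 class I genes in orange), by list, with the number tested in brackets, the list median as a bar and the median of all 11913 tested genes as a dashed line at 0.03. List medians lie between -0.17 and 0.18, and 0 genes shown passed the threshold.

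Among other class I and class I-like genes 4 of 10 with a row were tested, with a median log2 fold change of -0.17 and 3 below 0. FCGRT, the class I-like Fc receptor that recycles antibody and albumin, had 50.7 ± 8.03 FPKM in control and 40.8 ± 3.11 with I1 (SD, n = 3 each; limma adjusted p = 0.467). Named after their values were seen, the class I pseudogenes HLA-H, HLA-J, HLA-K and HLA-L reached at most 0.583 FPKM in any library. HFE, the class I-like regulator of iron uptake, also named after its values were seen, reached 0.0212 FPKM.

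Loading chaperones and trimming peptidases were all expressed, 13 of 13 tested, with a median of 0.06 and 8 above 0. CALR, which encodes the chaperone calreticulin, had 1377 ± 184 FPKM in control and 1251 ± 94.2 with I1 (limma adjusted p = 0.676). HSPA5, the chaperone BiP, had 199, 420 and 354 FPKM in the controls and 198, 383 and 419 FPKM with I1. HSPA5 was low in both libraries numbered 1, where HLA-E was high, and its replicate term passed (limma adjusted p = 0.0194, and 0.0199 after the GC correction). PDIA3, the loading complex's disulphide isomerase, followed with 40.5, 79.9 and 60.9 FPKM in the controls and 52.6, 76.3 and 75.0 FPKM with I1 (replicate term adjusted p = 0.0660, and 0.0455 after the GC correction). PDIA3 was named after its values were seen.

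Immunoproteasome subunits, which interferon induces and which favour class I peptides, were far below the standard subunits they replace. Of the 9 genes of this list 8 were tested, with a median log2 fold change of -0.14 and 7 below 0. The highest means over all 6 libraries were those of PSMB7, a standard catalytic subunit, at 86.9 ± 1.46 FPKM in control against 81.8 ± 5.17 with I1, and PSME1, of the activator PA28, at 66.4 ± 7.80 and 59.1 ± 6.45 FPKM (SD, n = 3 each; limma adjusted p = 0.686 and 0.561). The subunits that follow were named after their values were seen. PSMB9 had 0.0376 to 0.125 FPKM over the 6 libraries, from 2 to 7 reads each, or 0.118% to 0.417% of its counterpart PSMB6, around a floor of 3 reads at 0.0536 to 0.0596 FPKM. The gene model of PSMB9 overlaps that of TAP1 on the other strand, with 0 shared exon bases. PSMB10 had 4.38 to 7.29 FPKM, 5.62% to 8.69% of PSMB7.

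PSMB8 had 7.07, 2.36 and 2.68 FPKM in the controls and 5.50, 2.09 and 2.88 FPKM with I1, 3.38% to 10.7% of PSMB5. It was high in both libraries numbered 1 and low in the other 4, the pattern of HLA-E, and its replicate term passed (limma adjusted p = 0.0317, and 0.0233 after the GC correction). Between the groups it did not pass (log2 fold change -0.12, limma adjusted p = 0.883). PSMB8, TAP1, TAP2 and PSMB9 are neighbours in the class II region of chromosome 6.

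**Figure D5:**
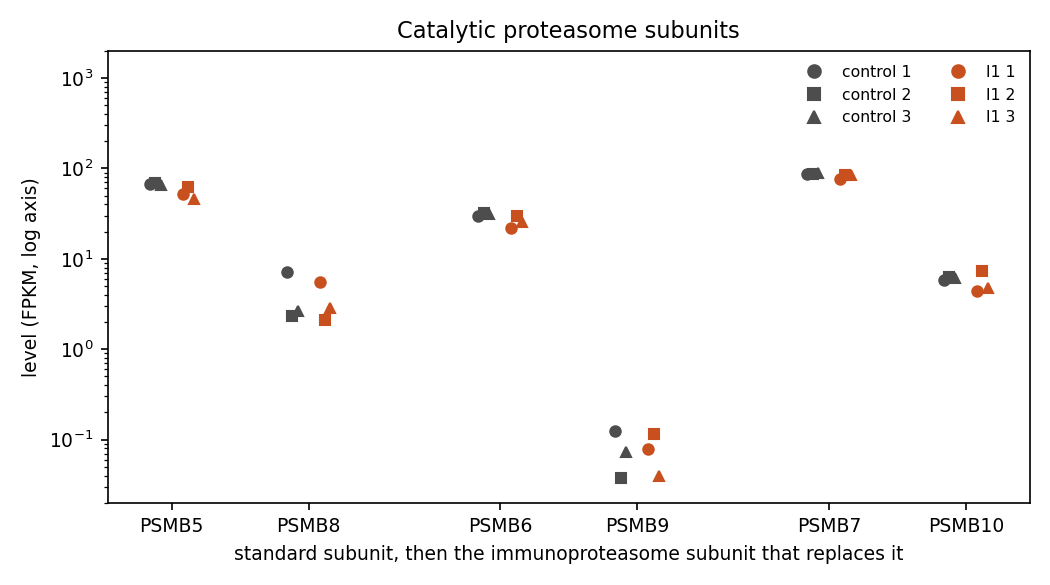
Levels in FPKM on a log axis of the standard catalytic subunits PSMB5, PSMB6 and PSMB7, each followed by its immunoproteasome counterpart PSMB8, PSMB9 or PSMB10, in 3 controls (grey) and 3 I1 libraries (orange), with a symbol for each replicate number. Standard subunits lie between 21.8 and 88.5 FPKM, and PSMB9 at 0.125 FPKM or less.

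Transcription regulators of class I genes had 19 of 20 tested, with a median of 0.06 and 11 above 0. The level of NFYA, which binds the CCAAT box, was 36.9 ± 7.07 FPKM in control against 39.8 ± 6.71 with I1. EZH2, the enzyme of the Polycomb mark that can silence class I genes, stood at 35.1 ± 6.50 and 39.2 ± 3.41 FPKM (SD, n = 3 each; limma adjusted p = 0.761 and 0.596). NFKB1, a subunit of NF-kB named after its values were seen, had a replicate term that passed after the GC correction (limma adjusted p = 0.0348, and 0.0863 before it). It was highest in both libraries numbered 2, at 24.9 and 22.7 FPKM, as TAPBP was. IRF9, chosen after its values were seen, stayed below the filter, at 0.328 FPKM or less.

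Interferon receptors and kinases had 9 of 10 tested, with a median of 0.18 and 5 above 0, and 0.04 after the GC correction. TYK2, a kinase of the type I interferon receptor, stood at 22.9 ± 2.14 FPKM in control against 18.8 ± 1.19 with I1, and JAK1, a kinase of both kinds of receptor, 17.9 ± 2.38 and 20.3 ± 0.909 FPKM (SD, n = 3 each; limma adjusted p = 0.467 and 0.524). The receptor genes were named after their values were seen. IFNAR1, IFNAR2, IFNGR1 and IFNGR2 had means of 9.15, 2.78, 9.47 and 9.57 FPKM in control and 12.3, 2.53, 11.7 and 7.41 FPKM with I1. Transcripts of these receptors and kinases were thus present in both groups. The list also holds SOCS1, SOCS3 and PTPN2, which are neither receptors nor kinases.

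Interferon-stimulated genes were low. Of the 24 with a row, 15 never reached 1 FPKM in any library, and the highest value of the list was 10.4 FPKM. The sum of the 24 was 38.3, 24.0 and 23.0 FPKM in the controls and 31.0, 27.6 and 26.2 FPKM with I1. GBP1, named after its values were seen, is a GTPase strongly induced by interferon gamma. It had 0 reads in all 6 libraries, which allows up to 0.0330 to 0.0367 FPKM. Over the 9 tested genes the median log2 fold change was -0.01, and 4 were above 0; after the GC correction the median was 0.14. IFI6 had 10.4, 5.20 and 3.92 FPKM in the controls and 8.39, 8.05 and 7.23 FPKM with I1 (limma adjusted p = 0.560), and IFITM1, a membrane protein that blocks virus entry, 6.05, 2.89 and 3.14 against 3.84, 2.57 and 3.01 FPKM (adjusted p = 0.624). Control replicate 1 was above the mean of the other controls for 8 of the 9, and I1 replicate 1 above its group's others for 7 of 9, against 5051 and 5804 of all 11913 tested genes.

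Negative regulators of surface class I had 6 of 7 tested, with a median of -0.07 and 6 below 0, and 0.06 after the GC correction. TRAF3 had 15.5 ± 2.50 FPKM in control and 15.4 ± 0.918 with I1. TMEM127, which works with SUSD6 and WWP2 to take class I off the surface, had 9.65 ± 0.377 and 8.55 ± 0.150 FPKM (limma adjusted p = 0.995 and 0.506). For TMEM127 every I1 library lay below every control, as for 8.74% of all tested genes. The same held for FCGRT, TYK2 and PSMB7, among others named here. The log2 fold change of TMEM127 was -0.16, and -0.03 after the GC correction.

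Ligands of NK cell receptors had 7 of 12 tested, with a median of -0.08 and 5 below 0, and 0.10 after the GC correction. NCR3LG1, the ligand B7-H6 of NKp30, stood at 26.1 ± 5.37 FPKM in control against 31.4 ± 5.90 with I1, and PVR, a ligand of DNAM-1 and TIGIT, 13.7 ± 1.58 and 13.4 ± 0.891 FPKM (SD, n = 3 each; limma adjusted p = 0.515 and 0.912). The genes whose replicate term passed were named after their values were seen. ULBP1, a ligand of NKG2D, had 2.29, 0.679 and 1.01 FPKM in the controls and 3.50, 0.826 and 1.26 FPKM with I1 (replicate term, limma adjusted p = 0.0498). NECTIN2, a ligand of DNAM-1, had 14.4, 6.78 and 9.94 FPKM in the controls and 12.0, 6.83 and 9.55 with I1 (adjusted p = 0.0452). Both had the order of HLA-E, with replicate 1 highest and replicate 2 lowest in each group.

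Of the checkpoint ligands 2 of 5 with a row were tested. LGALS9, the ligand galectin-9, had 17.1 ± 4.08 FPKM in control and 13.6 ± 1.67 with I1. CD47, the signal that keeps macrophages from engulfing a cell, had 6.40 ± 1.52 and 8.41 ± 0.132 FPKM (SD, n = 3 each; limma adjusted p = 0.475 and 0.467). For CD47 every I1 library lay above every control, as for JAK1 and for 12.9% of all tested genes. The log2 fold change of CD47, 0.37, was 0.08 after the GC correction. CD274, which encodes PD-L1 and was chosen after its values were seen, had 0 or 1 read in each library, at most 0.0146 FPKM.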

How the data were processed

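Total RNA was made into libraries with a stranded mRNA kit, per the labels' protocols. The submitters' processing notes name hg38, HTSeq, HISAT2, Cufflinks and Trimmomatic; for their versions, roles and annotation nothing is given in the sources used here. The deposited values are FPKM for 29810 genes. The title of that table mentions cell lines other than Kasumi-1, yet its 6 column names match these 6 samples (unused columns: 0). Of the identifiers, 29507 had a symbol.

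With GENCODE release 29 exon lengths, 28484 of 29703 genes (95.9%) gave whole reads in all libraries within 0.05 reads, though not B2M and TAP1. Intervals and floors (3 reads) cover counting error only. Tests used limma 3.58.1 with an intensity trend in R 4.3.3, and tables Python 3.11.15. The fit was tested on simulated counts with the same dispersion for all genes. These had no GC effect and no deviation shared by replicate number, so that test covers neither. Alternatives were pseudocounts of 0.1 and 0.5, filters, scalings, a lowess correction for GC content (span 0.3), array weights, blocking on replicate number, protein-coding genes alone and leaving out libraries. Added after seeing the data were voom, dropping both libraries numbered 1, GC correction without control replicate 1, and the test of the replicate term. The members and lists were chosen with earlier results of these data known. Named genes are the 9 members, per list the genes past the threshold or else the 2 with the highest mean (1 such gene is not reported here), and the 3 genes nearest in pattern to NLRC5, B2M and TAP1; others were named after their values were seen, as the text says, or as cell markers or overlapping genes. Same-numbered libraries deviated together (0.476, 0.457 and 0.412), a pairing read from the titles' numbers and the values.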

Additional observations from a re-analysis of the deposited data

How the results depend on the processing

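No class I gene and no pathway gene passed the threshold under any of the 22 alternatives run, replicate block and its GC-corrected form included. Not every gene was tested in each. Voom had no value for B2M, and the filter at a mean of 5 FPKM left out NLRC5, TAP2 and the pathway genes below it. TAP1 had a value only with no filter. Over the 8 tested members the smallest adjusted p was 0.188. An unadjusted limma p under 0.05 was seen for TAPBP with the block and GC correction (0.0466). It was also seen for ERAP1 without control replicate 2 (0.0316) and for HLA-B with GC correction without control replicate 1 (0.0267). Of 173 recomputed fold changes of members 26 turned sign. Over all genes 4 passed (6 with the replicate block, 2 with the block and GC correction). That count was 14 with array weights, 2 with quantile normalization or GC correction, and 0 with pseudocounts of 0.1 or 0.5, no filter, a mean of at least 5 FPKM, protein-coding genes alone, voom, without both libraries numbered 1, or GC correction without control replicate 1 (402 to 1726 at an unadjusted p under 0.05), and 0 to 2 without single libraries. The cause was not tested. B2M turned to -0.0172 with TMM factors, -0.00649 with median ratio factors, -0.179 with GC correction, with or without the block, and -0.0721 with GC correction without control replicate 1. HLA-E turned to 0.00262 with array weights and 0.292 with GC correction without control replicate 1. TAPBP turned to 0.0242 with equal sums, 0.164 with GC correction, with or without the block, 0.0659 with array weights and 0.0350 with GC correction without control replicate 1. NLRC5 turned to 0.0624 with GC correction, with or without the block, and 0.165 with it without control replicate 1, where ERAP1 was -0.00255. Leaving out single libraries gave -0.0529 to 0.592 for HLA-B, -0.0752 to 0.434 for HLA-C, -0.536 to 0.209 for HLA-E, -0.146 to 0.0855 for TAPBP and -0.289 to 0.0571 for NLRC5. Blocking on the replicate number changed no call of a member. Values under 1 FPKM, such as those of TAP1 and PSMB9, rest on few reads.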
